A study of Schmidtea mediterranea with 100 samples.

Results

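The 193 transcripts described here are those of the bulk table that carry no gene name and stood highest in the FACS gate called PM. They were chosen from the measured values. A transcript was a member when its identifier began with SmedASXL_, smed or dd_Smed, its level in PM was at least 50 CPM (reads scaled so that every column has the same total), and that level was at least 2 times the level in each of the other 3 gates. The bulk table listed 67386 transcripts, of which 67222 were unnamed and 2388 of these reached 50 CPM in PM. The 193 members were 8.08% of those 2388, and all 193 had the prefix SmedASXL_. The other 2195 unnamed transcripts at 50 CPM or more in PM are used below for comparison.

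All cells came from the asexual clonal strain CIW4 of the planarian flatworm Schmidtea mediterranea, from wild type animals, and were sorted after dissociation on staining of DNA by Hoechst and of RNA by pyronin Y. One bulk TruSeq library from Trizol RNA represented each of the gates PM, S/G2/M, G1 and RNA-low, and Smart-seq2 was used for 96 single cells sorted from RNA-low. What PM stands for is not spelled out in the labels, and neither are the animals or pools behind a library. The column headed G0 in the bulk table was taken as RNA-low, because G0 also opens the column names of the single RNA-low cells, while the remaining 3 bulk columns are named for their gates.

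Adult planarians hold dividing stem cells, called neoblasts, which express piwi-1, and their progeny leave the cell cycle and mature into tissues such as epidermis, muscle and intestine. In the epidermal lineage the prog-1 and prog-2 families mark early post-mitotic progeny, and vim-1 marks a later step. The members are known by identifier alone, so no role can be stated for any of them. They are ordered below by level, by the gates, by their identifiers and by their detection in single cells. No sequence of a member was used here.

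The libraries held 47338591 counted reads in PM, 74968402 in S/G2/M, 54070578 in G1 and 57385665 in RNA-low. Counted by their number of reads, transcripts were most frequent at about 24 reads in PM, 21 in S/G2/M, 10 in G1 and 5 in RNA-low, and reads were divided by these peaks to estimate starting fragments. The 3 ribosomal RNA rows took 35.1% of reads in PM, 21.9% in S/G2/M, 16.8% in G1 and 16.9% in RNA-low. Piwi-1 stood at 542 CPM in PM, 3208 in S/G2/M, 1440 in G1 and 1651 in RNA-low. PCNA, which encodes the sliding clamp of DNA replication, stood at 36.4 CPM in PM, 393 in S/G2/M, 109 in G1 and 42.2 in RNA-low. The 18 prog-1 and prog-2 transcripts summed to 20095 CPM in PM, 5645 in S/G2/M, 32610 in G1 and 1926 in RNA-low. Not all of them followed that sum. Prog-1d, prog-1e, prog-1f, prog-1g and prog-1j were highest in S/G2/M, at 17.4 to 82.5 CPM there. With 1 library per gate, no difference between gates has a replicate check, no test was possible and no p is given. Intervals are 95% intervals on estimated fragments and cover counting error only. Levels are per library total and not per length or per cell, so fewer cells of a type and less RNA per cell cannot be told apart.

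The members together made up 3.23% of all reads in PM, against 0.370% in S/G2/M, 0.429% in G1 and 0.255% in RNA-low. Their summed level was 32299 CPM in PM, 3705 CPM in S/G2/M, 4287 CPM in G1 and 2552 CPM in RNA-low. The median member stood at 104 CPM in PM, 10.4 in S/G2/M, 15.5 in G1 and 6.60 in RNA-low. The median log2 ratio of PM, with 0.5 CPM added to each level, was 3.39 over S/G2/M, 3.06 over G1 and 4.11 over RNA-low. For the other 2195 transcripts these medians were -0.10, -0.46 and -0.49. The rule chose the members by these ratios, so they are a description and carry no test. The larger ribosomal RNA share of the PM library moved with the same contrast. That excess lay mainly in the row 16sRibo, at 329742 CPM in PM, 201169 in S/G2/M, 144725 in G1 and 132626 in RNA-low. The more abundant 28S row was highest in RNA-low, at 35959 CPM beside 20645 in PM. The other 28S row was at 259 CPM in PM, above the other gates. The larger share lowers every other level in PM relative to the total. With the ribosomal RNA rows left out of the totals 309 transcripts met the rule, all 193 members among them.

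**Figure D1:**
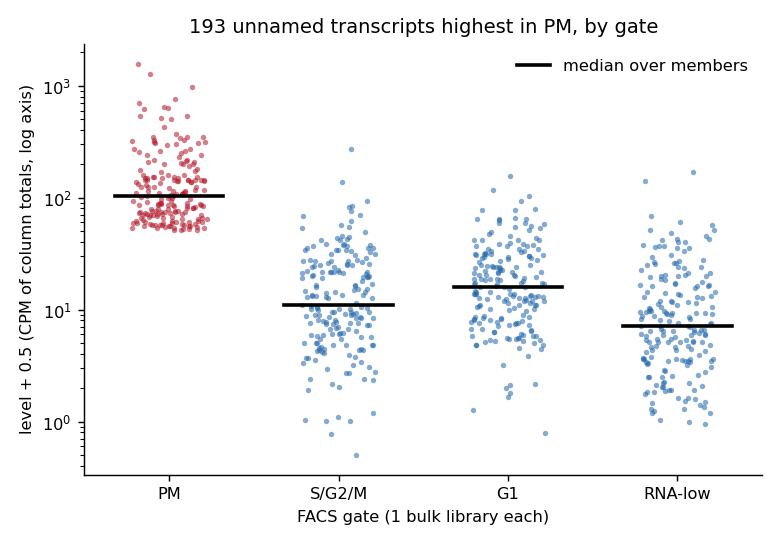
Level of each of the 193 members in the 4 bulk libraries, in CPM of column totals with 0.5 added, on a log axis. Each point is 1 transcript and each bar is the median over members, which lies at 104 CPM in PM, 10.4 in S/G2/M, 15.5 in G1 and 6.60 in RNA-low before the 0.5 is added.

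The PM levels were spread over many transcripts and not carried by a few. The 5 members with the most PM reads held 16.4% of the members' summed PM level and the first 10 held 25.5%. In PM, 100 members reached 100 CPM, 43 reached 200 CPM and 12 reached 500 CPM. The member with the fewest PM reads still rested on about 99.6 estimated fragments, and the median member on about 205.

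SmedASXL_071694 had the highest PM level, with 1576 CPM in PM, 83.5 in S/G2/M, 78.3 in G1 and 8.85 in RNA-low. Its level in RNA-low was far below that in both S/G2/M and G1. SmedASXL_078876 followed with 1277 CPM in PM, 137 in S/G2/M, 102 in G1 and 68.7 in RNA-low, a flatter profile outside PM. SmedASXL_004442 had 976 CPM in PM, 5.71 in S/G2/M, 92.4 in G1 and 56.7 in RNA-low, so that S/G2/M was its lowest gate by a wide margin. SmedASXL_077747 stood at 756 CPM in PM, 272 in S/G2/M, 154 in G1 and 171 in RNA-low. It had the smallest PM excess of the 10 highest members, 2.78 times the next gate (interval 2.56 to 3.01), and the highest level of any member in S/G2/M, in G1 and in RNA-low.

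SmedASXL_018564 had 699 CPM in PM, 37.7 in S/G2/M, 45.0 in G1 and 13.0 in RNA-low. SmedASXL_063753 had 629 CPM in PM, 25.1 in S/G2/M, 38.6 in G1 and 4.97 in RNA-low. These 2 stood 15.5 and 16.3 times above G1, their next gate, and both were lowest in RNA-low. SmedASXL_069015 had 646 CPM in PM, 76.2 in S/G2/M, 57.1 in G1 and 34.7 in RNA-low. SmedASXL_076962 had 620 CPM in PM, 69.8 in S/G2/M, 64.2 in G1 and 42.1 in RNA-low. Their profiles were close to each other, at 8.48 and 8.88 times S/G2/M. SmedASXL_078903 had 532 CPM in PM, 43.4 in S/G2/M, 36.7 in G1 and 24.7 in RNA-low. SmedASXL_006564 had 531 CPM in PM, 68.3 in S/G2/M, 54.4 in G1 and 18.2 in RNA-low. In 9 of these 10 members RNA-low or S/G2/M was the lowest gate, and SmedASXL_077747 alone was lowest in G1.

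The ratio of PM to the next highest gate had a median of 7.76 and ran up to 44.0. It lay from 2 to under 3 in 25 members, from 3 to under 5 in 36, from 5 to under 10 in 67, from 10 to under 20 in 58 and at 20 or more in 7. The lower end of the counting interval was above 2 for 182 members and above 1 for all 193. The 7 members with a ratio of 20 or more all had moderate PM levels, from 61.6 to 125 CPM, and stood at 3.92 CPM or less in every other gate.

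SmedASXL_018697 had 61.6 CPM in PM, 1.40 in S/G2/M, 0.777 in G1 and 0.488 in RNA-low. Its ratio to S/G2/M was 44.0 (interval 18.3 to 138). SmedASXL_017086 had 125 CPM in PM, 2.91 in S/G2/M, 1.15 in G1 and 0.732 in RNA-low, and its ratio was 43.0 (interval 23.2 to 89.3). The intervals of these 2 overlap almost wholly, so their order is not resolved. SmedASXL_012035 had 101 CPM in PM, 3.16 in S/G2/M, 1.66 in G1 and 1.38 in RNA-low. SmedASXL_009671 had 69.1 CPM in PM, 2.201 in S/G2/M, 0.296 in G1 and 2.02 in RNA-low. It was the only member lower in G1 than in RNA-low by more than 1 log2 unit, at -1.66 with 0.5 CPM added, and both levels were under 5 CPM. SmedASXL_075607 had 92.8 CPM in PM, 3.44 in S/G2/M, 1.29 in G1 and 1.41 in RNA-low. All 5 were next highest in S/G2/M.

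**Figure D2:**
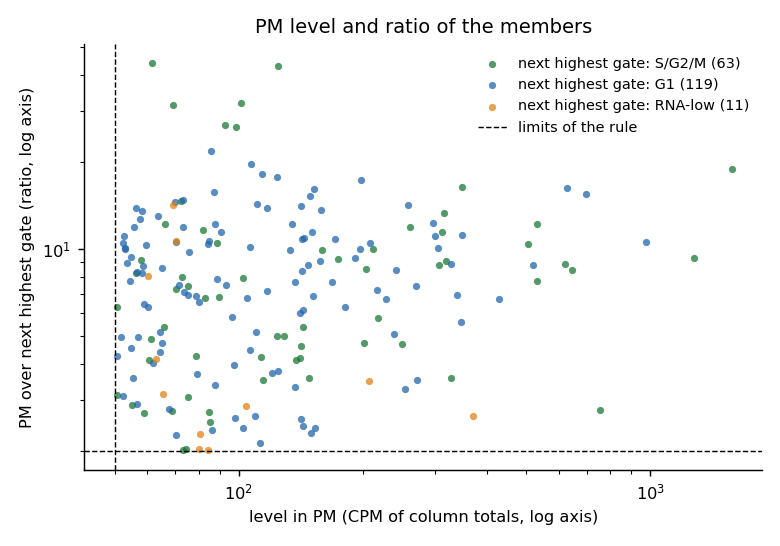
Level in PM (CPM of column totals) against the ratio of PM to the next highest gate, both on log axes, for the 193 members, coloured by which gate came next. Dashed lines mark the limits of 50 CPM and 2 times, and the members with a ratio of 20 or more lie at moderate PM levels.

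At the limits of the rule the values ran on without a gap. Just inside the level limit were SmedASXL_074958, SmedASXL_075491 and SmedASXL_018364 at 50.5, 50.5 and 50.6 CPM in PM, and just outside it SmedASXL_008025, SmedASXL_077333 and SmedASXL_079835 at 49.6, 49.4 and 49.1 CPM. Just inside the ratio limit were SmedASXL_016889, SmedASXL_006640 and SmedASXL_078897 at 2.00, 2.01 and 2.03, and just outside it SmedASXL_071433, SmedASXL_018694 and SmedASXL_078871 at 1.9993, 1.996 and 1.94. A further 261 unnamed transcripts passed the ratio with PM levels from 20 to under 50 CPM.

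The same rule applied to the other gates gave 145 of 2643 unnamed transcripts for S/G2/M (5.49%), 12 of 3147 for G1 (0.381%) and 151 of 3221 for RNA-low (4.69%). Among transcripts with a gene name, 2 of 38 at 50 CPM or more in PM met it (5.26%). They were vim-1, with 112 CPM in PM, 9.40 in S/G2/M, 18.1 in G1 and 2.09 in RNA-low, and prog-1b, with 63.7 CPM in PM, 11.2 in S/G2/M, 11.7 in G1 and 0.627 in RNA-low. The other 17 prog-1 and prog-2 transcripts did not meet it. Titin, which encodes a giant muscle protein, was 2.69 times higher in PM than in the next gate but at 12.8 CPM. Other tissue markers were not highest in PM. The neuronal genes COE and elav-2 summed to 37.9 CPM in PM, 15.5 in S/G2/M, 52.0 in G1 and 144 in RNA-low, and the intestinal genes porcnA and porcn-B to 103 CPM in PM, 145 in S/G2/M, 128 in G1 and 142 in RNA-low.

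Profile likeness to named genes was measured as the Euclidean distance between log2 levels centred over the 4 gates, for the 108 named transcripts at 5 CPM or more in PM. The nearest to the median profile of the members was vim-1, at a distance of 1.34, and vim-1 itself met the rule. The profile includes PM, where the rule fixed the members' excess. The rank is therefore partly set by the rule and is a description. RPGRIP1L_Fantom followed at 1.57, spondin at 1.75, CC169 at 1.88 and wnt11-1 at 2.07. The median member lay at 1.05 from that profile. After vim-1 these genes were at low levels, from 6.89 CPM in PM for wnt11-1 to 11.5 CPM for CC169, and the measure rests on 4 libraries.

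The rule did not fix the order of the other 3 gates. Next after PM came G1 for 119 members (61.7%), S/G2/M for 63 (32.6%) and RNA-low for 11 (5.70%). Among the other 2195 unnamed transcripts the highest of the 3 gates was G1 for 27.9%, S/G2/M for 29.8% and RNA-low for 42.3%. RNA-low was the lowest of the 4 gates for 130 members (67.4%), and the lowest of the 3 for 28.8% of the other transcripts. The order of G1 and S/G2/M depended on how libraries were scaled. With TMM scaling G1 came next for 91 members and S/G2/M for 90, and with median-of-ratios scaling G1 came next for 74 and S/G2/M for 110. RNA-low came next for 9 to 12 members under every scaling.

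More members were called higher than lower in G1 against RNA-low and in S/G2/M against RNA-low. A transcript at 5 CPM or more in either gate was called when its ratio was at least 2-fold and its interval did not include equality. Of 172 members that passed the level limit, 85 were higher in G1 than in RNA-low and 0 were lower, beside 10.9% higher and 5.97% lower among all 12099 unnamed transcripts tested. Of 157 members that passed, 63 were higher in S/G2/M than in RNA-low and 10 were lower, beside 12.9% and 28.3% of 11822. Of 175 members that passed, 6 were higher in S/G2/M than in G1 and 33 were lower, beside 6.27% and 25.9% of 11891. The members that did not pass had under 5 CPM in both gates.

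The median log2 ratio over all 193 members was 0.88 for G1 over RNA-low, against -0.02 for the other 2195 transcripts. For S/G2/M over RNA-low it was 0.70, against -0.28 for the others. For S/G2/M over G1 it was -0.32, close to the -0.30 of the others, and it turned to 0.14 with median-of-ratios scaling. The early progeny sum moved with the first of these ratios, at 32610 CPM in G1 and 1926 CPM in RNA-low. Its part in the members' levels was not tested.

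The 11 members whose next gate was RNA-low had ratios of PM to RNA-low from 2.01 to 14.2. SmedASXL_007801 was the most abundant of them, with 370 CPM in PM, 81.7 in S/G2/M, 116 in G1 and 140 in RNA-low. SmedASXL_017153 had 207 CPM in PM, 45.3 in S/G2/M, 50.8 in G1 and 59.5 in RNA-low. In both, RNA-low stood above G1, and G1 above S/G2/M.

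A small set of members stood far lower in S/G2/M than in both G1 and RNA-low. This set was chosen after its values were seen. In 8 members (4.15%) the S/G2/M level was at most 1/4 of both the G1 and the RNA-low level, as it was in 54 of the other 2195 transcripts (2.46%). Together the 8 summed to 1520 CPM in PM, 8.82 in S/G2/M, 183 in G1 and 129 in RNA-low. SmedASXL_004442, described above, held most of the PM sum. SmedASXL_008738 had 97.3 CPM in PM, 0.587 in S/G2/M, 24.5 in G1 and 23.5 in RNA-low. SmedASXL_079106 had 79.1 CPM in PM, 0.507 in S/G2/M, 21.4 in G1 and 19.6 in RNA-low. Both were well above 10 CPM in the 3 gates other than S/G2/M. SmedASXL_018734 had 69.3 CPM in PM, 0 reads in S/G2/M, 4.36 CPM in G1 and 4.90 in RNA-low. Set against a floor of 3 fragments in that library, its PM level was at least 82.5-fold higher than in S/G2/M. The other 4 were SmedASXL_018008, SmedASXL_017876, SmedASXL_072704 and SmedASXL_052568, at 0.267 to 0.694 CPM in S/G2/M. These 4, SmedASXL_008738 and SmedASXL_079106 also lay under that floor, 0.840 CPM in S/G2/M, so their levels there are imprecise. SmedASXL_017876 stood at only 1.60 CPM in RNA-low, so its place in the set is not resolved at that floor. The 8 were read in few single RNA-low cells, a median of 2.5 and at most 10 of 79, against a median of 24 for the other 185 members.

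The members stood apart from the other unnamed transcripts in the numbers of their identifiers. The meaning of these numbers is not given in the sources used here, and the split at 20000 was chosen after the values were seen. The number was 20000 or more in 100 of 193 members (51.8%) and in 103 of the other 2195 (4.69%), while 73.3% of all unnamed transcripts had such numbers. Members were 49.3% of the unnamed transcripts at 50 CPM or more in PM with a number of 20000 or more, and 4.26% of those under 20000. In the sets that the same rule gave for the other gates, such numbers were held by 7 of 145 for S/G2/M (4.83%), 1 of 12 for G1 and 16 of 151 for RNA-low (10.6%). Within the members the bin from 75000 to under 80000 was the fullest, with 54.

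Members with higher and lower numbers had nearly the same medians in PM and in RNA-low and differed in S/G2/M and G1. The 100 members with numbers of 20000 or more had median levels of 104 CPM in PM, 9.25 in S/G2/M, 11.5 in G1 and 6.62 in RNA-low. The 93 with lower numbers had 104 CPM in PM, 13.6 in S/G2/M, 18.0 in G1 and 6.59 in RNA-low. The median log2 ratio of G1 over RNA-low was 0.73 with the higher numbers and 1.16 with the lower ones, and the median ratio of PM to the next gate was 8.84 and 6.53.

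**Figure D3:**
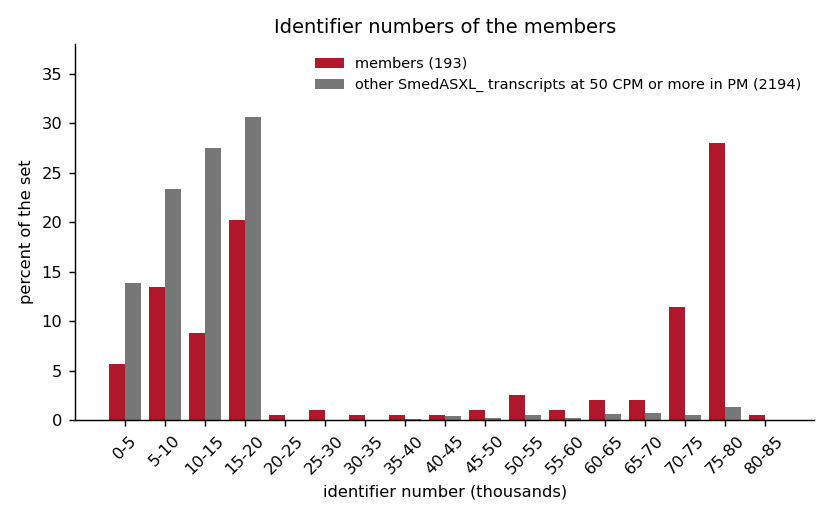
Share of the 193 members and of the other SmedASXL_ transcripts at 50 CPM or more in PM whose identifier number falls in each bin of 5000. The bin from 75000 to under 80000 holds 28.0% of the members and 1.37% of the others.

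Some members had neighbouring identifier numbers, 30 of 193 with a member at the next or previous number (15.5%). Of all 2388 unnamed transcripts at 50 CPM or more in PM, 29.7% had one of that set at the next or previous number. Such a share rises with the size of the set, and that set is far larger, so these shares cannot be compared. No share matched for set size was computed. After the values were seen, 2 long runs of numbers were picked out. In the first, 8 of the 10 numbers from SmedASXL_018562 to SmedASXL_018571 were members, with PM levels from 59.0 to 699 CPM and a sum of 2372 CPM in PM, 237 in S/G2/M, 237 in G1 and 95.3 in RNA-low. The 2 others of that run, SmedASXL_018565 and SmedASXL_018569, were at 4.88 and 2.56 CPM in PM, with PM at 2.06 and 2.13 times the next gate. No interval was computed for these ratios at such low levels. In the second, 7 of the 9 numbers from SmedASXL_078903 to SmedASXL_078911 were members, with PM levels from 56.9 to 532 CPM and a sum of 1849 CPM in PM, 172 in S/G2/M, 252 in G1 and 156 in RNA-low. The other 2 were SmedASXL_078909 at 4.35 CPM in PM and SmedASXL_078910 at 0.0634 CPM, with PM at 1.34 and 0.214 times the highest of the other gates. SmedASXL_078910 lay under the floor of 3 fragments in PM, 1.52 CPM, so its ratio is not resolved. No interval was computed for SmedASXL_078909, so these transcripts do not set the runs apart. A ribosomal RNA row, 16sRibo, carries the nearby identifier SmedASXL_078927. The median share of cells in common (cells with both over cells with either) was 0.515 in the first run and 0.482 in the second, against 0.179 over all pairs of members. This share rises with the number of cells in which a transcript is read, and members of the runs were read in 21 to 46 and in 32 to 68 kept cells, against a median of 22 over all members. No value matched for that number was computed. Whether transcripts of a run share sequence, and so reads, was not tested.

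The single RNA-low cells were not used by the rule. Of the 96, 79 with at least 500 detected transcripts were kept and 17 were left out. Of the 193 members, 192 had a row in the single-cell table and all 192 were read in at least 1 kept cell. SmedASXL_067069, at 52.5 CPM in PM and 0.993 CPM in RNA-low, had no row there. The median member was read in 22 of the 79 kept cells (quartiles 14 and 36), against 12 for the other 2195 transcripts (quartiles 8 and 20). At least 10 kept cells held a read of 160 members (82.9%) and of 1418 other transcripts (64.6%). At least 40 held a read of 45 members (23.3%) and of 193 others (8.79%). The 96 cells count as 1 sample, so none of these differences carries a test.

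At a like level in the RNA-low bulk library, members from 2 CPM up had a higher median number of cells with a read than other transcripts. The rule used this bulk level, and the sets differ in other ways, since all other unnamed transcripts had no minimum in PM, so the comparison is a description. At 5 to under 10 CPM in RNA-low bulk, the median of 45 members was 25 kept cells, against 4.5 for only 10 others at 50 CPM or more in PM and 3 for all 2382 other unnamed transcripts. At 20 to under 50 CPM the median was 38 for 30 members, 7 for 91 others at 50 CPM or more in PM and 5 for all 2895 others. Under 2 CPM the 31 members and the 7 others at 50 CPM or more in PM had the same median of 12, and the median of all others was 0. Transcripts with no row in the single-cell table were set to 0 cells. Within identifier numbers under 20000, members at 5 to under 10 CPM had a median of 25 cells and all other unnamed transcripts a median of 2. At 20 to under 50 CPM the medians differed by identifier number. Members had 17 cells with numbers under 20000 and 57.5 with 20000 or more, against 4 and 6 for all others.

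**Figure D4:**
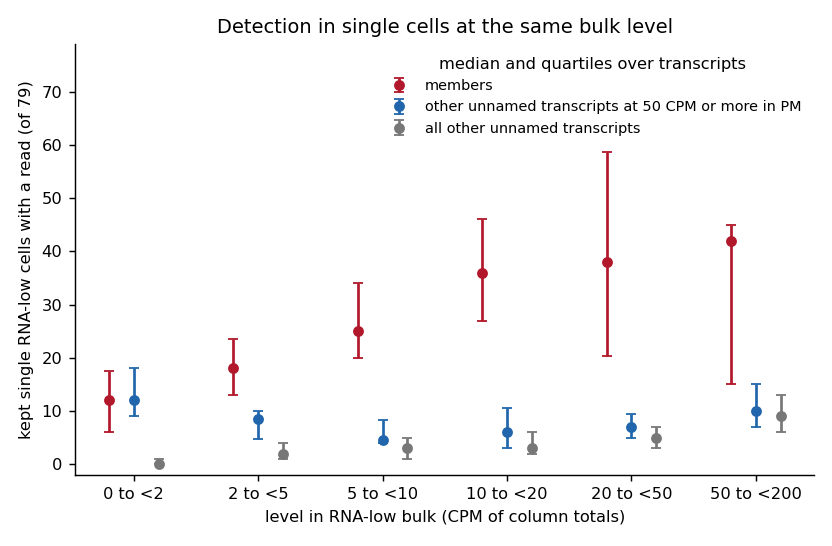
Number of kept single RNA-low cells with a read, out of 79, by level in the RNA-low bulk library (CPM of column totals), as the median and quartiles over transcripts. In bins from 2 CPM up the median of the members lies above that of both sets of other transcripts, for example 36 against 6 and 3 cells at 10 to under 20 CPM.

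SmedASXL_081337 was read in all 79 kept cells (100%) and in all 17 left-out cells. It stood at 85.2 CPM in PM, 33.9 in S/G2/M, 23.0 in G1 and 26.6 in RNA-low, had a median of 887 reads in a kept cell and took 35.3% of all member reads in the single cells. It was 1 of 47 transcripts read in at least 90 of the 96 cells. SmedASXL_078876, the second most abundant member in PM, was read in 74 kept cells (93.7%). SmedASXL_070859 was read in 71 (89.9%), although it stood at only 1.52 CPM in RNA-low bulk, beside 199 CPM in PM, 9.00 in S/G2/M and 11.5 in G1. SmedASXL_076962 was read in 70, and SmedASXL_076569 and SmedASXL_040341 in 69 each. A high level in PM did not always go with wide detection, and SmedASXL_004442 at 976 CPM in PM was read in 8 kept cells.

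A kept cell held reads of a median of 68 members, from 22 to 142, out of a median of 2075 transcripts. Members were 3.02% of the transcripts read in the median kept cell and took 1.85% of its reads other than ribosomal RNA (range 0.839 to 8.18%). Without SmedASXL_081337 that share was 1.07%. In the left-out cells the median was 28 members (9 to 37) out of 389 transcripts, or 7.20%, and 2.64% of reads. The number of members followed the number of transcripts across the 79 kept cells, with a Spearman rho of 0.832 in which both counts share the cell's depth. Cells 6 and 9 held the most, with 142 and 139 members out of 7946 and 4368 transcripts, and the next cell held 103. Without these 2 cells the median was 65. When each cell was thinned to 20000 reads other than ribosomal RNA, which 77 kept cells allowed, the median was 42 members (16 to 95).

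**Figure D5:**
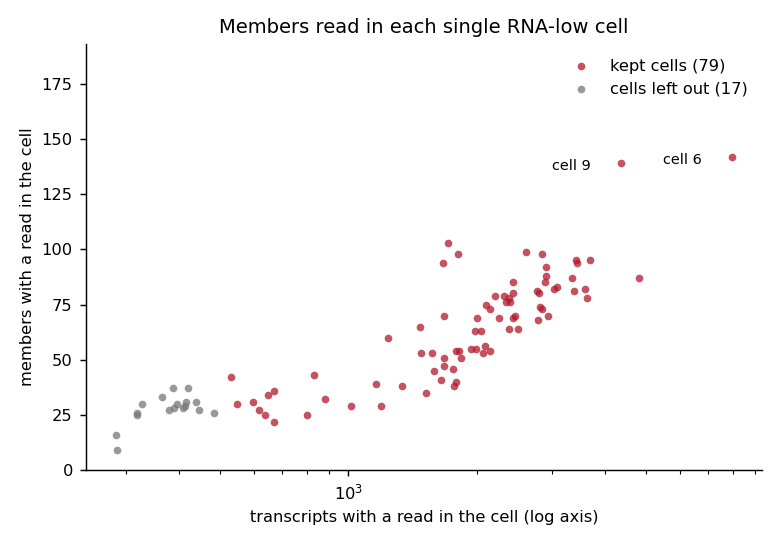
Members with a read against all transcripts with a read (log axis) in each of the 96 single RNA-low cells, with 79 kept cells and 17 left out. The number of members grows with the number of transcripts, and cells 6 and 9 lie highest at 142 and 139 members.

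Pooled over the kept cells and with ribosomal RNA rows left out of both totals, the members summed to 19659 CPM in single RNA-low cells and 3069 CPM in the RNA-low bulk library. SmedASXL_081337 alone took 35.3% of all member reads in the single cells. The rule used the RNA-low bulk level and so favoured low values of it, with a median of 7.97 CPM for members and 153 CPM for the other transcripts on this scale. The ratio over that level is therefore a description. Of the 192 compared, 161 (83.9%) were higher in the single cells, with a median log2 ratio of 1.75. Among the others with a single-cell row, 315 of 2193 (14.4%) were higher, with a median log2 ratio of -1.42. Single cells and bulk differ in library method as well as in the cells sampled, the tables were counted separately, and these cannot be told apart.

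Reads of piwi-1 were found in 51 of the 79 kept cells. The median cell held 69 members with piwi-1 reads and 59.5 members without, out of 2213 and 2012.5 transcripts. The share of reads on members was 1.84% in cells with piwi-1 and 1.89% in cells without. Of 179 members read in at least 5 kept cells, 144 (80.4%) were found more often in cells with piwi-1, beside 65.8% of 10180 unnamed transcripts read in at least 5. After thinning the count was 118 of 160 members (73.8%), beside 60.0% of unnamed transcripts. With piwi-1 set at 5 reads or more the count was 120 of 179 (67.0%), beside 60.7%, but the medians turned round. The median cell then held 65 members with piwi-1 and 69.5 without, and the share of reads was 1.77% with and 1.93% without. A like split came with vim-1, which was read in 15 kept cells. The median cell held 79 members with vim-1 reads and 63 without, out of 2213 and 2059.5 transcripts. The share of reads on members was 1.91% with vim-1 and 1.85% without. Of 179 members, 152 (84.9%) were found more often with vim-1, beside 67.8% of unnamed transcripts. Cells 6 and 9, which held the most members, had reads of both genes, but cell 6 had only 1 read of vim-1 beside 285 of piwi-1. Cell 9 had 49 reads of vim-1 and 8 of piwi-1. The part of depth in these splits was tested only by the thinning of the piwi-1 split, and cells of 1 sample are not replicates.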

How the data were processed

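The deposited tables give raw read counts, whole numbers per transcript, for 4 bulk libraries and 96 single cells, with no normalization by the authors. The submitters' processing notes name bcl2fastq 1.8.3 and Bowtie2. How reads were counted, filtered and assigned to which reference is not given in the sources used here. Transcripts of near-identical sequence may therefore share or divide reads. All columns were used.

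The members and all lists were chosen with earlier results of these data known. Counts were divided by column totals (CPM), and log2 ratios used 0.5 CPM added to each level. Reads were divided by the peak of transcripts per read count, smoothed with triangular weights over neighbouring counts, to estimate fragments. Ratios carry exact 95% conditional binomial intervals on these fragments. Depth was 47338591 to 74968402 reads in bulk and 1882 to 7719585 in kept cells.

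Members named are the 10 highest in PM, the 5 next largest ratios, 3 on each side of each limit, the 5 read in most kept cells (6 with a tie) and those read in none. Named genes are those that met the rule, the 5 nearest in profile and piwi-1, PCNA, vim-1 and titin. Others are named as chosen after their values were seen. They are those next highest in RNA-low, those low in S/G2/M and those in runs of numbers. The member next to vim-1 in number and those with the most single-cell reads were also added. Alternatives used TMM from edgeR 4.0.16 and median-of-ratios factors from DESeq2 1.42.0, for scaling only.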

Additional observations from a re-analysis of the deposited data

How the results depend on the processing

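No paired analysis was possible because each gate has 1 library. Of the recomputed values, 50 kept within their counting or order interval or within 1.5 times the count, and the others are given here, for which the cause was not tested unless the setting itself fixes it. The number of members was 309 with totals without ribosomal RNA, 454 with a PM minimum of 20 CPM and 100 with a minimum of 100 CPM. With TMM or median-of-ratios scaling it was 196, and 191 were shared with the reported set. The members' sum in PM was 32028 CPM with median-of-ratios scaling, 49740 without ribosomal RNA and 27016 without the 5 members with the most PM reads. In S/G2/M it was 4203 CPM with TMM, 4559 with median-of-ratios, 4743 without ribosomal RNA and 3169 without those 5. In G1 it was 3899, 3788, 5154 and 3815 CPM under the same 4 settings, and in RNA-low 2464, 2366, 3070 and 2234 CPM. S/G2/M came next after PM for 110 members and G1 for 74 with median-of-ratios scaling.

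The median log2 ratio of PM over S/G2/M was 3.09 with median-of-ratios scaling, 3.67 without ribosomal RNA and 2.90 with 5 CPM added. PM over G1 was 3.43 without ribosomal RNA and 2.66 with 5 CPM added, and PM over RNA-low was 4.48 and 3.26. S/G2/M over G1 was -0.016 with TMM and changed sign to 0.14 with median-of-ratios. S/G2/M over RNA-low was 0.92 with TMM, 1.09 with median-of-ratios and 0.42 with 5 CPM added. G1 over RNA-low was 0.61 with 5 CPM added, 1.16 for identifier numbers under 20000 and 0.73 for 20000 or more.

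Counting only cells with 5 or more reads, the median member was found in 13 kept cells and the median kept cell held 41 members. Thinning to 20000 reads gave 13 cells and 42 members. Members with numbers under 20000 had a median of 19 cells. The share of single-cell reads on members was 0.255% with all reads as the denominator and 1.07% without transcripts read in at least 90 cells. Thinning, the splits by identifier number and leaving out the 2 cells with the most members were chosen after seeing the data. With 1 library per gate, no gate difference can be told from a difference between libraries. Estimated fragments are rough, and the PM library held the fewest, so low PM levels are the least precise.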

Other observations

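SmedASXL_004179, a member with 153 CPM in PM, 54.0 in S/G2/M, 64.0 in G1 and 33.0 in RNA-low, carries the identifier number next to that of vim-1, SmedASXL_004180. Both were highest in PM, but vim-1 was 6.17 times its next gate and the member 2.39 times its own. Whether the numbers place the transcripts together was not tested.

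SmedASXL_075006 took 8.73% of all member reads in the single cells, second to SmedASXL_081337. It was read in 58 kept cells and in 0 of the 17 left-out cells, with a median of 237 reads in the kept cells that held it, and stood at 88.5 CPM in PM, 8.43 in S/G2/M, 8.01 in G1 and 4.62 in RNA-low. SmedASXL_015314 followed with 3.25% of the reads, in 52 kept and 12 left-out cells.

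Cell 2 had the highest share of reads on members among the kept cells, 8.18%, but only 856 reads other than ribosomal RNA.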
